A study of Mus musculus with 3 samples.

Results

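The collagen chain genes encode the subunits of the collagens, the main structural proteins of the extracellular matrix. They were taken as every array probe whose transcript accession belongs to a mouse gene with a symbol of the form *Col* number *a* number. This gave 44 genes with 67 probes, of 22907 named genes with 32989 named probes. Transcript levels were compared among 3 cell lines by 1-color microarray, with 1 array for each line. Colon26 is a mouse colon adenocarcinoma line, and NM11 and LuM1 are sublines of it with low and high metastatic potential, respectively. All lines were of the BALB/c strain and female, and the labels name no transgene and no treatment. Each was grown for 3 days in serum-containing medium with antibiotics, and 0.1 μg of total RNA was labelled with Cy3. The comparison of LuM1 with its parental line and with the slowly metastatic NM11 was the purpose of the arrays. With 1 culture and 1 array for each line, no difference below has a replicate check and no test could be made.

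A collagen molecule is a triple helix of α chains, which may be the products of different genes. The chains are hydroxylated and glycosylated in the endoplasmic reticulum, folded with the help of the chaperone HSP47, secreted, trimmed and cross-linked. Fibrillar collagens such as types I, III and V form the cables of connective tissue, type IV forms the sheets of basement membranes, type VI forms beaded filaments, and the fibril-associated collagens (FACITs) decorate the surface of fibrils. In colon tumors the fibrillar collagens are mostly made by stromal fibroblasts, whereas these arrays held cultured tumor cells.

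Signals were background-subtracted by the scanner software and scaled so that the 75th percentile of every array was 585 intensity units. The value after ± is the software's error for the spot. It was close to 10% of bright signals and does not include any difference between cultures. A probe that the software did not place well above background gave only an upper bound, taken as its own signal or, where that was smaller, as the dimmest detectable signal of the array (26.4 in Colon26, 20.1 in LuM1 and 19.6 in NM11). None of the collagen spots was saturated or marked as an outlier. On the Colon26 array, spots that were well above background there and on neither other array lay in clusters, and 9 collagen probes lay within them. These included the *Col4a4* probe, both *Col24a1* probes, the *Col5a1* and *Col7a1* probes and the brighter of the *Col4a5* probes. Their part in the results was not tested, and values without these spots are given where they exist.

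The lines were set against markers of the cell types such a culture could hold. Of 12 intestinal epithelial markers, 4 were well above background in Colon26 cells, 5 in LuM1 cells and 4 in NM11 cells, with summed scaled signals of 1321, 493 and 429.9. *Cdh1* (E-cadherin), *Krt18*, *Krt19*, *Vil1* (villin), *Cdx1*, *Cldn3* and *Cldn4* were well above background on no array. The intestinal transcription factor *Cdx2*, *Krt8*, *Krt20* and *Lgals4* were so on all 3 arrays, and *Epcam* in LuM1 alone. *Krt20* (651, 54.5 and 157 in Colon26, LuM1 and NM11), *Cdx2* (443, 232 and 167) and *Lgals4* (198, 71.7 and 68.2) were highest in Colon26. *Krt8* was instead highest in LuM1 (28.9, 108 and 37.1). Of 12 fibroblast and mesenchymal markers, 11 were well above background in each line, with summed signals of 437742 in Colon26, 552364 in LuM1 and 545732 in NM11. Most of these sums came from *S100a4* (270498, 297722 and 345490 in Colon26, LuM1 and NM11), *Vim* and *Fn1* (61264, 146728 and 81606). The sums therefore say little about the other markers of the list. *Vim* (vimentin) had signals of 102137, 80065 and 98371 in Colon26, LuM1 and NM11. *Thy1*, a surface marker of fibroblasts, was not well above background in Colon26 cells but reached 19560 in LuM1 and 15416 in NM11. Of the 5 endothelial markers, *Pecam1* alone was well above background, on all 3 arrays, with 51.3 in Colon26, 53.0 in LuM1 and 78.3 in NM11, and *Cdh5* and *Kdr* were so on none. Of the 5 macrophage markers, *Csf1r*, *Itgam* and *Cd68* were detected by this rule in each line and *Ptprc* and *Adgre1* in none, with summed signals of 5881, 12759 and 5225 in Colon26, LuM1 and NM11. *Cd68*, a lysosomal glycoprotein, had signals of 172, 5251 and 299 in the same order and was thus highest in LuM1. The other detected macrophage markers stayed within 2-fold, with 682, 691 and 675 for *Csf1r* and 5027, 6818 and 4251 for *Itgam*. The part of these markers in the collagen values was not tested. Of the 5 chondrocyte markers, 1, 3 and 2 were so in Colon26, LuM1 and NM11, and *Acan* was well above background in none.

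The sequences upstream of 5 collagen genes are shown because the levels of these chains set the lines apart. RefSeq promoter windows on GRCm38.p6 were at hand for 35 of the 44 genes. Printed 5′ to 3′ are the 250 bases before the start of *Col1a2* (chr6:4505368-4505617, + strand) and *Col3a1* (chr1:45311288-45311537, + strand), and of the upstream start of *Col18a1* (chr10:77166531-77166780, − strand). For the neighbors *Col4a1* (chr8:11312955-11312983, − strand) and *Col4a2* (chr8:11312761-11312789, + strand), which are read in opposite directions from starts 21 bases apart, only 29 bases around the CCAAT match are shown. Capitals mark matches to CCAAT (or its reverse complement ATTGG), to TATAAA (or TTTATA) and to GGGCGG (or CCGCCC), called the GC box.
Col1a2: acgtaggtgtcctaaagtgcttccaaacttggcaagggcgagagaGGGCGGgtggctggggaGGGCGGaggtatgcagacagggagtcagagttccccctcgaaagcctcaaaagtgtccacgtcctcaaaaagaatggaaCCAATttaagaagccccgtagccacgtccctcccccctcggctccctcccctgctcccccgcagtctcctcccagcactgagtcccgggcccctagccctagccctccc
Col3a1: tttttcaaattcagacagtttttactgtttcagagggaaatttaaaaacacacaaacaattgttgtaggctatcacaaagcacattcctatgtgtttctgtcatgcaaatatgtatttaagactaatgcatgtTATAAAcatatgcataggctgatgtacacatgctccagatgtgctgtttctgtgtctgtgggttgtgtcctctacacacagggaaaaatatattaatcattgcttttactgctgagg
Col18a1: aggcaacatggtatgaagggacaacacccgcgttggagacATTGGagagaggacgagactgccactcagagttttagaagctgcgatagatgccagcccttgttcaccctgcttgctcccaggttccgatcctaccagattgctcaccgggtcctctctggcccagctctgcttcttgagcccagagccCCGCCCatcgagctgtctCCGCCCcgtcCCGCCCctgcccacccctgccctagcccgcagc
Col4a1: tgcttgcccgggATTGGcgagccaagggg
Col4a2: ccgaggagctccCCAATttgttggcgctg
The *Col1a2* window held GC boxes 205 and 188 bases and a CCAAT match 109 bases before the start, and no TATAAA. That of *Col18a1* held 3 GC boxes within 61 bases of the start and a CCAAT match on the opposite strand 210 bases before it. The window of the other *Col18a1* start, not shown, held no match to any of these motifs. That of *Col3a1* held a single TATAAA 117 bases before its start. The 2 matches of the type IV pair lay 145 and 32 bases before the starts of *Col4a1* and *Col4a2*. Over all 38 collagen windows, 22 (57.9%) held a GC box, against 32.7% of the 32851 mouse windows of this length. The collagen windows also had a higher median GC content, 59% against 52.4%, whose part in that share was not tested. CCAAT was found in 34.2% against 33.8%, and TATAAA in 13.2% against 12.4%. A match describes the letters alone and identifies no binding site.

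Collagen transcripts were found in all 3 lines. Of the 44 genes, 23 were well above background in Colon26 cells (52.3%), 23 in LuM1 cells (52.3%) and 25 in NM11 cells (56.8%), while 57%, 60% and 59.2% of all named genes were so on the same arrays. In all, 29 genes were detected on at least 1 array and 18 on all 3. On a single array were found *Col4a4* (Colon26), *Col8a2* and *Col27a1* (LuM1) and *Col6a3* and *Col12a1* (NM11). *Col2a1* and *Col5a3* were detected in LuM1 and NM11, *Col24a1* in Colon26 and LuM1, and *Col4a5*, *Col9a1* and *Col11a1* in Colon26 and NM11. The other 15 genes were well above background on no array. A looser rule, a signal significantly above background, was met by 29, 32 and 31 genes in Colon26, LuM1 and NM11. The 15 genes were *Col4a3*, *Col4a6*, *Col5a2*, *Col6a4*, *Col6a5*, *Col6a6*, *Col9a3*, *Col10a1*, *Col13a1*, *Col15a1*, *Col19a1*, *Col22a1*, *Col23a1*, *Col25a1* and *Col28a1*. Several of them encode partners of a detected chain, such as *Col5a2*, the usual partner of *Col5a1* in type V collagen.

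**Figure D1:**
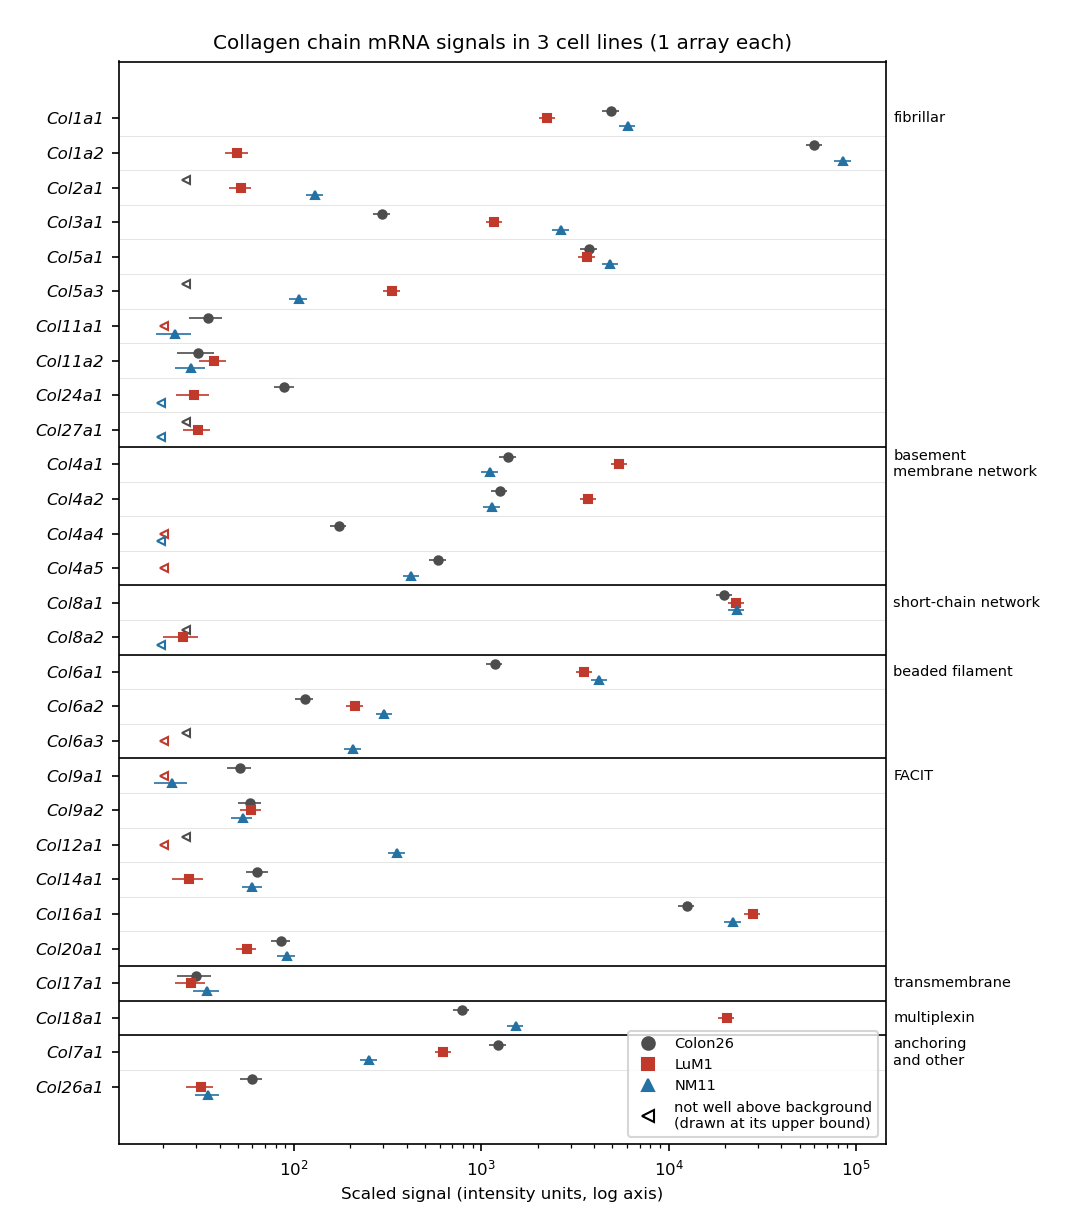
Scaled signals (log axis, intensity units) of the 29 collagen genes well above background on at least 1 array, grouped by class, with 1 symbol for each cell line and the scanner error as bars. Hollow triangles are upper bounds of probes not well above background. *Col1a2* lies at 49.6 in LuM1 cells and at 59896 or above in the other lines, whereas *Col18a1* lies at 20400 in LuM1 cells and at 1526 or below in the others.

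The ratios of the collagen genes spread widely in both directions, with medians near those of all genes. Of 26 genes with a ratio of LuM1 over Colon26, 7 were at least 2-fold higher, against 13.1% of all named genes. Another 7 were at least 2-fold lower, against 11.8%. Over NM11, 5 of 28 were higher (11.1% of all genes) and 8 were lower (8.5% of all genes). In NM11 over Colon26, 7 of 27 genes were at least 2-fold higher (8.34% of all genes) and 4 were lower (7.89%). The median log2 ratio of collagen genes measured on both arrays was 0.01 for LuM1 over Colon26 (19 genes), -0.20 for LuM1 over NM11 (20 genes) and 0.10 for NM11 over Colon26 (21 genes). All named genes had medians of -0.13, -0.11 and -0.02. With the authors' processed values the collagen median was 0.46 over Colon26 and 0.21 over NM11, and that of all genes was 0.32 and 0.31. The collagen median over Colon26 was above 0 under every scaling tried and without the clustered spots. It was below 0 with normexp and with no filter on dim probes. The sign of the medians of the other comparisons depended on the scaling. The median size of the collagen log2 ratios was 1.13 for LuM1 over Colon26 and 0.92 for LuM1 over NM11, beside 0.47 and 0.42 in all genes. For NM11 over Colon26 it was 0.47, beside 0.34 in all genes.

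Of the 29 detected genes, 4 had a ratio of 2 or more in LuM1 over each of the other lines (*Col4a1*, *Col4a2*, *Col5a3* and *Col18a1*), against 7.33% of all genes. Another 4 (*Col1a1*, *Col1a2*, *Col4a5* and *Col14a1*) were lower than in both by that factor, against 4.03%. NM11 stood above both other lines in 4 genes, *Col2a1*, *Col3a1*, *Col6a3* and *Col12a1* (2.58% of all genes), and below both in *Col7a1* alone (2.08%). Colon26 stood above both in *Col4a4*, *Col9a1* and *Col24a1* (4.46%) and below both in *Col3a1*, *Col5a3* and *Col6a1* (4.53%). The comparisons share arrays, so these counts are not independent of each other.

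**Figure D2:**
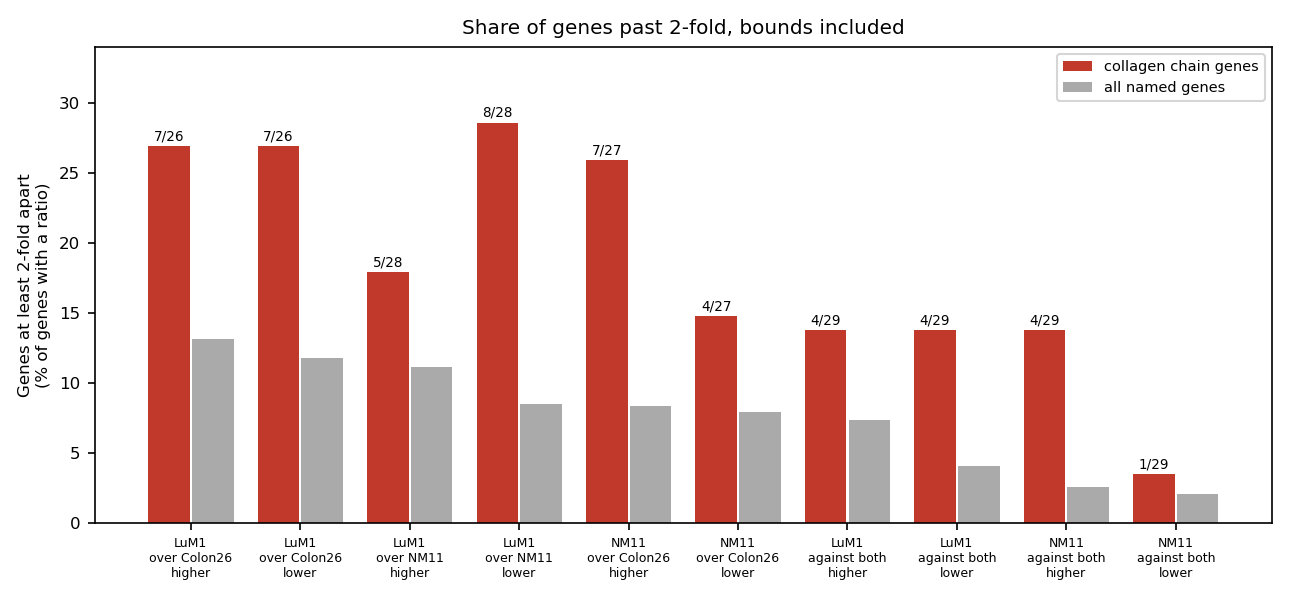
Share of genes at least 2-fold apart (percent of genes with a ratio, bounds included) in each comparison and direction, for collagen chain genes (red, with counts above the bars) and all named genes (gray). The collagen share is above that of all genes in each comparison drawn. The gap in percentage points is widest for LuM1 over NM11, lower, with 8 of 28 genes against 8.5%.

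The largest difference among the collagen genes was in type I collagen, the main collagen of skin, bone and tumor stroma. *Col1a2*, which encodes its α2 chain, had scaled signals of 59896 ± 5990 in Colon26, 49.6 ± 6.89 in LuM1 and 85275 ± 8527 in NM11. The LuM1 signal was thus near background, and it was 1207-fold lower than in Colon26 and 1719-fold lower than in NM11. In both comparisons this was the lowest ratio among all measured genes (12394 and 12848). Whether fewer of the cells held the transcript or each held less of it cannot be told apart in such bulk RNA. The array carried 1 named probe for *Col1a2*. Its log2 ratio stayed between -10.24 and -8.87 over Colon26 and between -10.80 and -9.39 over NM11 in every setting tried. *Col1a2* differed little between the slowly metastatic lines, with a log2 ratio of 0.51 ± 0.20 for NM11 over Colon26.

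*Col1a1*, the gene of the α1 chain that pairs with the product of *Col1a2*, remained clearly expressed in all lines. Its signals were 4918 ± 492 in Colon26, 2247 ± 225 in LuM1 and 6045 ± 605 in NM11. LuM1 was lowest again, but only 2.19-fold below Colon26 and 2.69-fold below NM11. Both *Col1a1* probes were printed 10 times on each array, which gives a measure of technical spread. The 10 spots of the brighter probe ran from 4621 to 5435 in Colon26, from 2111 to 2431 in LuM1 and from 5639 to 6508 in NM11, so those of LuM1 did not overlap with the others. The second probe gave log2 ratios of -1.18 and -1.48, close to -1.13 and -1.43 for the brighter one. The log2 ratio over Colon26 was -0.98 after quantile normalization and -0.68 with the authors' values, and that over NM11 was -0.84 when scaled to *Hprt*. The ratios of the partner genes therefore lay 9.11 ± 0.32 apart on the log2 scale over Colon26 and 9.32 ± 0.32 apart over NM11. Between NM11 and Colon26 they lay 0.21 apart, which was within the scanner error of 0.29.

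*Col3a1*, which encodes the single chain of type III collagen found with type I in elastic tissues, followed another order. Its signals were 294 ± 29.9 in Colon26, 1170 ± 117 in LuM1 and 2655 ± 265 in NM11. Both sublines were higher than the parental line, by 3.98-fold in LuM1 and 9.04-fold in NM11. LuM1 was 2.27-fold below NM11, but the log2 ratio of -1.18 became -0.59 when scaled to *Hprt*, -0.87 when scaled to spike-in controls and -0.77 with the authors' values. *Col5a2*, its neighbor on chromosome 1, was well above background on no array.

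Type V collagen regulates the diameter of type I fibrils. *Col5a1*, its main chain, had signals of 3750 ± 375 in Colon26, 3667 ± 367 in LuM1 and 4891 ± 489 in NM11, all within 2-fold of each other. *Col5a3*, which encodes a chain of more restricted expression, was not well above background in Colon26 and reached 334 ± 33.7 in LuM1 and 106 ± 11.4 in NM11. Its level in LuM1 exceeded the Colon26 bound at least 12.6-fold and the NM11 level 3.16-fold. Over the settings tried, the value over Colon26 lay between 4.65-fold and 30.7-fold and the ratio over NM11 between 2.21-fold and 4.75-fold. The 30.7-fold value came with looser or no detection filters. It is a ratio to a Colon26 signal near background (10.9 ± 6.10) and no bound. These values rest on 1 of its 2 probes. The second was well above background on no array and did not show this order, with 23.6 in Colon26, 5.67 in LuM1 and 7.31 in NM11. The log2 ratios of *Col5a1* and *Col5a3* differed by 2.08 ± 0.30 in LuM1 over NM11.

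The other fibrillar genes were dim. *Col2a1*, the collagen of cartilage, was not well above background in Colon26 and had signals of 52.1 ± 7.14 in LuM1 and 129.8 ± 13.7 in NM11. It was 2.49-fold lower in LuM1 than in NM11, which fell below 2-fold with 3 of the settings tried (log2 ratios of -0.73 with *Hprt*, -0.90 with the authors' values and -0.77 with normexp). *Col11a1*, a minor cartilage fibril chain, had 34.5 ± 6.92 in Colon26 and 23.3 ± 5.01 in NM11 and was not well above background in LuM1. The second *Col11a1* probe was well above background on no array. *Col11a2*, its partner, had 30.6 ± 6.73, 37.2 ± 5.99 and 28.3 ± 5.25 in Colon26, LuM1 and NM11, which differed by less than 2-fold. Its second probe was not well above background in LuM1 and had 43.0 ± 6.06 in NM11, at least 2-fold apart, so the probes disagreed. *Col24a1*, a minor fibrillar chain, had 88.8 ± 10.8 in Colon26 and 29.3 ± 5.73 in LuM1 and was not well above background in NM11. Its log2 ratio of LuM1 over Colon26 was -1.60, but -0.67 with normexp. Both its probes lay in the clusters on the Colon26 array, and its second probe was well above background on no array. *Col27a1* had 30.7 ± 5.08 in LuM1 cells alone, at least 1.16-fold above Colon26 and 1.57-fold above NM11, so that no 2-fold difference was shown.

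In type IV collagen, whose network underlies epithelia and vessels, the 2 ubiquitous chains were raised in LuM1 cells and *Col4a5* was not detected there. *Col4a1* had signals of 1387 ± 139 in Colon26, 5444 ± 544 in LuM1 and 1113 ± 111 in NM11. *Col4a2*, whose start lies beside that of *Col4a1*, had 1252 ± 125, 3731 ± 373 and 1138 ± 114 in the same order. In both genes LuM1 stood apart and Colon26 and NM11 lay within 2-fold. *Col4a1* was 3.93-fold higher in LuM1 than in Colon26 and 4.89-fold higher than in NM11. *Col4a2* was 2.98-fold and 3.28-fold higher. The log2 ratios of the pair differed by 0.40 ± 0.29 over Colon26 and 0.58 ± 0.29 over NM11. Each gene had 1 named probe, and both stayed at least 2-fold higher under every scaling and background correction tried.

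*Col4a5*, a chain of the specialized networks of kidney and smooth muscle, moved the other way. Its brighter probe had 585 ± 58.8 in Colon26 and 424 ± 42.6 in NM11 and was not well above background in LuM1. LuM1 was thus at least 29.1-fold below Colon26 and at least 21.0-fold below NM11. Over the settings tried its log2 ratio ran from -5.76 to -2.02 over Colon26 and from -5.30 to -1.46 over NM11. The second probe, which lay outside the clusters on the Colon26 array, had 82.1 ± 10.3 in Colon26 and 55.8 ± 7.25 in NM11 and was again not well above background in LuM1, with log2 ratios of at most -2.03 and -1.47. *Col4a6*, which lies next to *Col4a5* on chromosome X, was well above background on no array. *Col4a4*, another specialized chain, had 173 ± 16.8 in Colon26 alone and was at least 8.59-fold lower in LuM1 and 8.84-fold lower in NM11. Its only probe lay in the clusters, so no value without them exists.

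*Col18a1* had the highest measured ratio among the collagens in LuM1 cells, while that of *Col5a3* over Colon26 is only a lower bound. It encodes type XVIII collagen, a basement membrane proteoglycan whose C-terminal fragment is endostatin. Its signals were 784 ± 78.6 in Colon26, 20400 ± 2040 in LuM1 and 1526 ± 153 in NM11. It was 26.0-fold higher in LuM1 than in Colon26 and 13.4-fold higher than in NM11. Among all measured genes it ranked 56 from the top in the first comparison and 75 in the second. NM11 was 1.95-fold above Colon26. Over all settings its log2 ratios lay between 4.56 and 5.15 over Colon26 and between 3.69 and 4.33 over NM11. *Col15a1*, the other multiplexin, was well above background on no array.

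**Figure D3:**
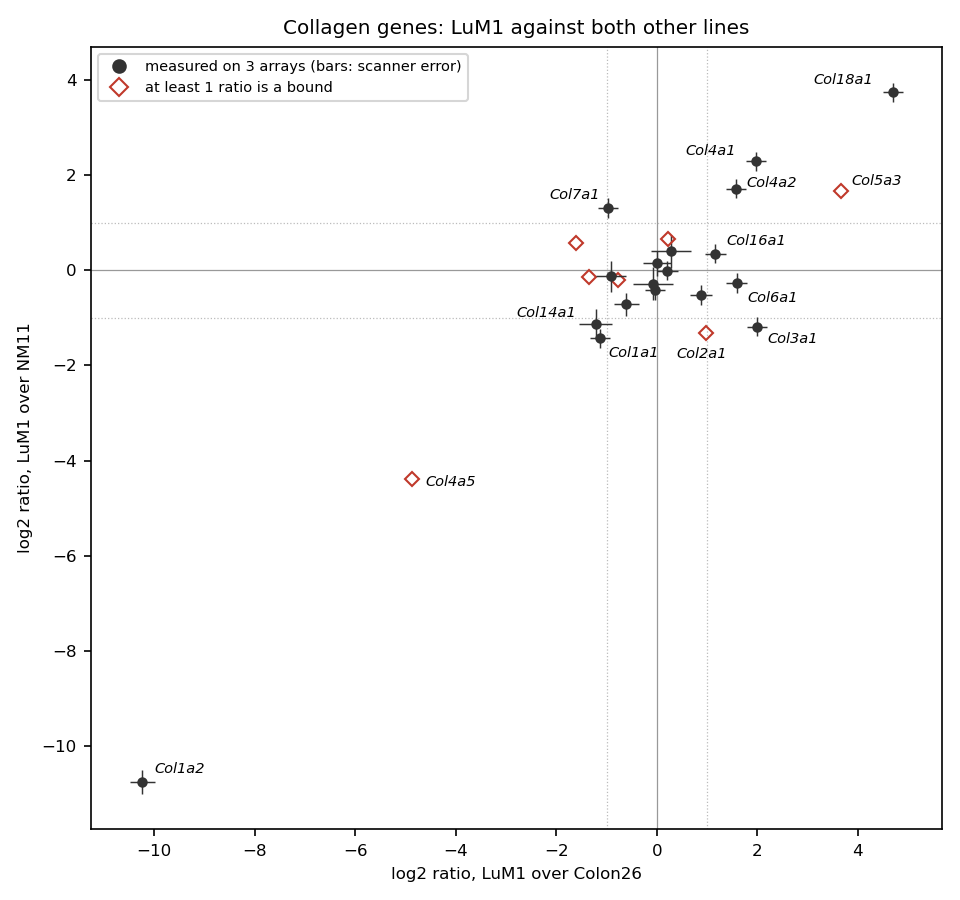
Log2 ratios of LuM1 over Colon26 (x axis) and over NM11 (y axis) for the 25 collagen genes with both ratios. Points with scanner error bars are the 18 genes measured on 3 arrays, hollow diamonds have at least 1 ratio that is a bound, and dotted lines mark 2-fold. *Col1a2* lies alone at the lower left (-10.24 and -10.75) and *Col18a1* at the upper right (4.70 and 3.74).

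Type VI collagen forms the beaded filaments around cells from chains of *Col6a1*, *Col6a2* and a longer partner. *Col6a1* had signals of 1179 ± 118 in Colon26, 3539 ± 354 in LuM1 and 4271 ± 427 in NM11. *Col6a2*, its neighbor on chromosome 10, had 114 ± 12.7, 211 ± 21.5 and 303 ± 30.6. Both genes were lowest in Colon26. The order of the sublines depended on the scaling, as the log2 ratio of LuM1 over NM11 ran from -0.27 to 0.32 for *Col6a1* and from -0.64 to 0.06 for *Col6a2*. *Col6a1* was 3.00-fold higher in LuM1 and 3.62-fold higher in NM11 than in Colon26, and *Col6a2* 1.85-fold and 2.66-fold higher. For *Col6a2* in NM11 over Colon26, the log2 ratio fell from 1.41 to 0.92 when scaled to *Hprt*. *Col6a3*, the usual longer partner, had 206 ± 21.0 in NM11 alone, which was at least 7.80-fold above Colon26 and 10.2-fold above LuM1. Its second probe was well above background on no array and gave nearly level signals of 11.95, 11.6 and 16.3 in Colon26, LuM1 and NM11. Of the 12 fibroblast and mesenchymal markers, 2 were at least 2-fold higher (8.34% of all genes) and 3 lower (7.89%) in NM11 than in Colon26. In LuM1, 3 were higher (13.1% of all genes) and 2 lower (11.8%) than in Colon26. *Thy1* and *Fbn1*, which encodes fibrillin-1, went opposite ways, as *Fbn1* had 315 in Colon26, 65.0 in LuM1 and 106 in NM11. *Postn* (periostin) had 88.5 in Colon26 and was not well above background in the sublines. The part of these markers in the type III and type VI values was not tested.

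The FACITs varied without a common direction. *Col12a1*, found on the fibrils of tendon and ligament, had 355 ± 35.8 in NM11 alone, at least 13.4-fold above Colon26 and 17.6-fold above LuM1. Its second probe had 67.8 ± 8.25 in NM11 and was likewise not well above background in the other lines. *Col14a1*, a fibril spacing protein, had 63.7 ± 8.5 in Colon26, 27.5 ± 5.08 in LuM1 and 59.9 ± 7.24 in NM11. It was 2.32-fold and 2.18-fold lower in LuM1, but with normexp background correction both log2 ratios were only -0.48, and with the authors' values they were -0.76 and -0.71. The one over NM11 was also short of 2-fold without scaling (-0.94) and when scaled to *Hprt* (-0.53) or to spike-in controls (-0.81). *Col16a1*, a FACIT of connective tissue and smooth muscle, had 12484 ± 1248 in Colon26, 28051 ± 2805 in LuM1 and 22021 ± 2202 in NM11. LuM1 was 2.25-fold above Colon26 and 1.27-fold above NM11, and the second probe gave log2 ratios of 1.31 and 0.62.

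*Col9a1*, a cartilage FACIT, had 51.3 ± 7.48 in Colon26 and 22.3 ± 4.54 in NM11 and was not well above background in LuM1. Its second probe was well above background on no array. Against Colon26 the brighter probe was 2.29-fold lower in NM11 and at least 2.55-fold lower in LuM1. With normexp it was less than 2-fold apart (log2 ratios of -0.40 and -0.56). With the authors' values the log2 ratio of LuM1 over Colon26 was -0.90. *Col9a2*, its partner, had 58.5 ± 8.27, 58.9 ± 7.43 and 53.1 ± 6.83 in Colon26, LuM1 and NM11, which lay within the scanner error of each other. *Col20a1* had 85.0 ± 10.2 in Colon26, 55.8 ± 7.04 in LuM1 and 91.4 ± 10.0 in NM11, within 2-fold throughout.

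Among the remaining collagens, *Col8a1* was bright and almost level. This short-chain collagen of vessel walls and cornea had 19801 ± 1980 in Colon26, 22949 ± 2295 in LuM1 and 23084 ± 2308 in NM11. Its partner *Col8a2* had 25.4 ± 5.42 in LuM1 and was not well above background in the other lines, with a ratio of at least 1.30 over NM11 and no bound above 1 over Colon26. *Col7a1*, which makes the anchoring fibrils that tie skin epithelium to the dermis, was lowest in NM11, with 1226 ± 123 in Colon26, 625 ± 62.7 in LuM1 and 251 ± 25.5 in NM11. It was 2.49-fold higher in LuM1 than in NM11 and 4.88-fold lower in NM11 than in Colon26, where its probe lay in the clusters. *Col17a1*, a transmembrane collagen of hemidesmosomes, had 29.9 ± 6.25, 28.3 ± 5.09 and 34.3 ± 5.27 in Colon26, LuM1 and NM11, all within the scanner error. *Col26a1* had 59.7 ± 7.97, 31.7 ± 5.15 and 34.7 ± 5.21, and was within 2-fold in every pair. The second probes of *Col17a1* and *Col26a1* were well above background on no array.

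The enzymes and chaperones that modify and fold procollagen were mostly alike among the lines. Of 17 such genes, 15 were well above background in Colon26 and LuM1 and 16 in NM11, and of the 16 with ratios 2 exceeded both other lines by 2-fold in LuM1 (7.33% of all genes), with none lower (4.03%). *Plod1*, a lysyl hydroxylase, had 934 ± 93.6 in Colon26, 2244 ± 224 in LuM1 and 781 ± 78.2 in NM11. *P3h3*, of the prolyl 3-hydroxylase family, had 1580 ± 158, 3360 ± 336 and 1653 ± 165, and its log2 ratio over NM11 was 0.97 with normexp. *Serpinh1*, which encodes HSP47, had 23387 ± 2339, 32294 ± 3229 and 32551 ± 3255, and *P4hb*, a subunit of prolyl 4-hydroxylase, had 15435 ± 1544, 17093 ± 1709 and 16019 ± 1602. These 2 genes thus stayed within 2-fold. Of 11 genes for secretion and propeptide removal, 8 had ratios. For none was a 2-fold difference of LuM1 from both lines shown (7.33% higher and 4.03% lower among all genes). *Pcolce2* was detected in LuM1 alone (51.6 ± 6.86), with lower bounds of 1.96-fold over Colon26 and 2.64-fold over NM11. A 2-fold difference of *Pcolce2* from Colon26 was thus neither shown nor excluded. *Pcolce*, an enhancer of C-propeptide removal, had 66347 ± 6635 in Colon26, 78477 ± 7848 in LuM1 and 67664 ± 6766 in NM11. *Creb3l1*, a transcription factor of collagen secretion, had 157 ± 16.8, 116 ± 12.5 and 568 ± 56.9 and was highest in NM11.

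Of the 5 lysyl oxidase genes, which cross-link collagen and elastin, *Loxl1* was far lower in LuM1 than in both other lines, as 1 of the 4 with ratios (4.03% of all genes). It had 1017 ± 102 in Colon26, 48.0 ± 6.49 in LuM1 and 2659 ± 266 in NM11, with log2 ratios of -4.40 and -5.79. *Loxl4* had 1528 ± 153 in Colon26 and was lower in both sublines, with 396 ± 39.8 in LuM1 and 321 ± 32.3 in NM11. *Loxl2* and *Loxl3* were within 2-fold in LuM1 against both lines, and *Lox* was well above background on no array. Of 9 collagen receptors, 7 had ratios, and for none was a 2-fold difference of LuM1 from either line shown. Some of these ratios were only lower bounds, which cannot show that a difference was below 2-fold. They were those of *Itga1* over Colon26 (at least 1.89-fold) and of *Itga2* over Colon26 and NM11 (at least 1.15-fold and 1.55-fold). *Itgb1*, the β subunit of the collagen-binding integrins, had 15218 ± 1522, 18627 ± 1863 and 17630 ± 1763 in Colon26, LuM1 and NM11, and the receptor kinase *Ddr2* had 5919 ± 592, 5495 ± 549.6 and 7595 ± 759.

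Of 4 proteoglycans that bind fibrils, the 2 that were detected exceeded Colon26 and NM11 by 2-fold or more in LuM1 (7.33% of all genes). *Dcn* (decorin) was not well above background in Colon26 and had 27503 ± 2750 in LuM1 and 9599 ± 960 in NM11. *Bgn* (biglycan) had 156 ± 16.6 in Colon26, 3725 ± 373 in LuM1 and 191 ± 19.6 in NM11, with log2 ratios of 4.58 and 4.29. Of 6 collagenases and gelatinases, 5 had ratios, of which *Mmp13* and *Mmp9* exceeded both other lines by 2-fold or more in LuM1 (7.33% of all genes). *Mmp13*, which cleaves fibrillar collagen, was not well above background in Colon26 and had 6283 ± 628 in LuM1 and 1609 ± 161 in NM11. *Mmp9*, a gelatinase that also degrades type IV collagen, was not well above background in Colon26 and had 2311 ± 231 in LuM1 and 24.7 ± 4.97 in NM11. *Mmp2*, the other gelatinase, was not well above background in Colon26 and had 1512 ± 151 in LuM1 and 1691 ± 169 in NM11, within 2-fold of each other.

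The transcriptional regulators of type I collagen did not share a direction. *Tgfb1*, the best known inducer of collagen synthesis, had 317 ± 32.3 in Colon26, 974 ± 97.5 in LuM1 and 448 ± 45.0 in NM11, with log2 ratios of 1.62 and 1.12. *Twist2*, a mesenchymal transcription factor, had 6728 ± 673, 1811 ± 181 and 5737 ± 574, with log2 ratios of -1.89 and -1.66. *Prrx1*, another such factor, had 2291 ± 229 in Colon26, 8997 ± 900 in LuM1 and 7679 ± 768 in NM11, and so was high in both sublines. *Smad3* and *Twist1* were within 2-fold in every comparison, and *Sp7* was well above background on no array. Of the 8 of these 9 genes with ratios, 1 was higher (7.33% of all genes) and 1 lower (4.03%) in LuM1 than in both other lines by 2-fold or more. Their part in the *Col1a2* result was not tested.

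**Figure D4:**
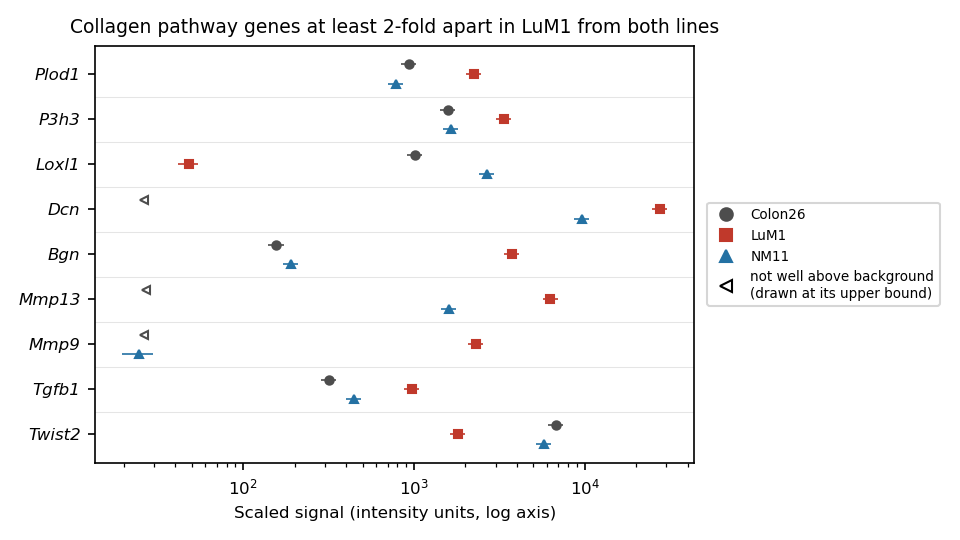
Scaled signals (log axis, intensity units) of the 9 genes of collagen processing, cross-linking, binding, breakdown and regulation that were at least 2-fold apart in LuM1 from both other lines, in the same direction. Symbols are cell lines, bars the scanner error and hollow triangles upper bounds. LuM1 is the lowest line for *Loxl1* (48.0) and *Twist2* (1811) and the highest for the other 7 genes.

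The choice of scaling moved all genes together. Relative to 75th percentile scaling, the median log2 ratio of all named genes was 0.45 higher over Colon26 and 0.41 higher over NM11 with the authors' processed values, and 0.10 and 0.59 higher when scaled to *Hprt*. Without scaling it was 0.11 and 0.18 higher. Under each of the 12 alternatives of scaling, background, detection and probes, *Col4a1*, *Col4a2*, *Col5a3* and *Col18a1* stayed higher and *Col1a2* and *Col4a5* lower in LuM1 than in both other lines by 2-fold or more. Choices of probe could not alter the genes with 1 named probe (*Col1a2*, *Col4a1*, *Col4a2* and *Col18a1*). Looser or no detection filters and the omission of clustered spots could not alter these genes either. Their probes passed the detection rule in each line and lay outside the clusters. For them only the scalings and the background correction were a check. *Col1a1* and *Col14a1* were not lower than both by 2-fold in every one.

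**Figure D5:**
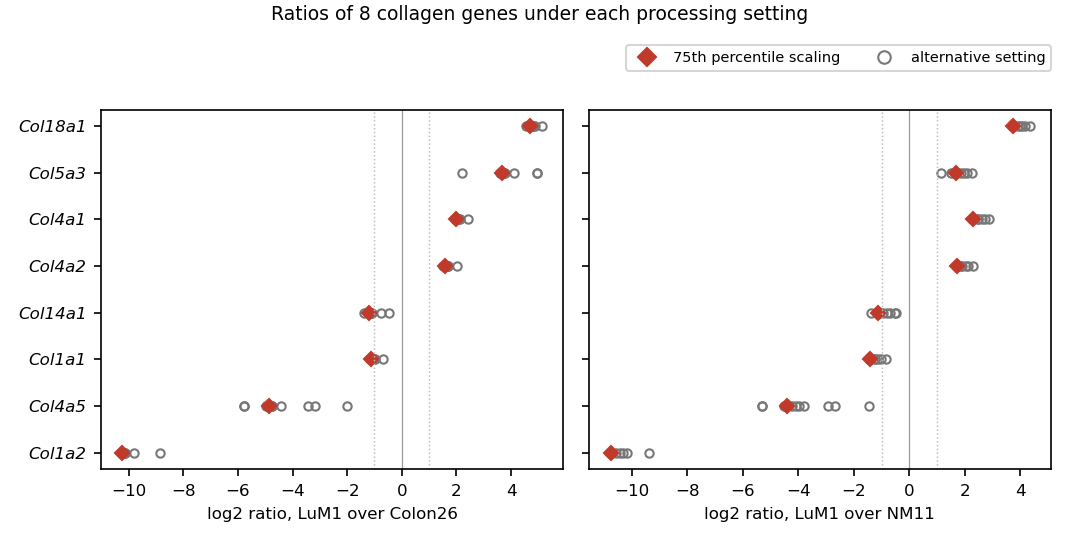
Log2 ratios of LuM1 over Colon26 (left) and over NM11 (right) for the 8 collagen genes at least 2-fold apart in LuM1 from both lines, with 75th percentile scaling (diamonds) and under each alternative (circles). Dotted lines mark 2-fold, and ratios of *Col5a3* over Colon26 and of *Col4a5* are bounds under most settings. Circles of *Col14a1* and *Col1a1* pass inside the 2-fold lines, while those of the other genes stay outside.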

How the data were processed

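Total RNA of Colon26, LuM1 and NM11 cells was hybridized by the authors to 1 Agilent SurePrint G3 Mouse array each, and all 3 arrays were on 1 slide. The authors deposited the output of Agilent Feature Extraction 11.5.1.1, in which gProcessedSignal is a background-subtracted fluorescence intensity, with an error and detection flags for each spot. The deposited table of processed intensity values equalled these signals times 1 factor for each array (0.654, 0.829 and 0.706), whose origin is not stated. Its scale is linear, and it was used as an alternative only.

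Non-control spots that were not outliers were averaged by probe, divided by the array's 75th percentile (581, 625 and 551.5 before scaling) and brought to a common value. Probes were named by accession through the RefSeq gene table, and each gene was represented by its brightest probe (mean log2 signal over the arrays). A gene counted as different when its ratio, or the bound on it, was at least 2-fold. No test was made. Values are given for each collagen gene detected on at least 1 array, and for pathway genes 2-fold apart in LuM1 from both lines or among the 6 of their list with the highest signals. The members and the lists were chosen with earlier results of these data known. Alternatives were no scaling, scaling to the median, to *Hprt* or to E1A spike-in controls, quantile normalization, the authors' values, normexp (limma 3.58.1, offset 50, on median brightness), looser or no detection filters, other choices of probe, omission of clustered spots and a 4-fold threshold. The ratio and count steps were run on simulated signals, in which 200 of 200 changed genes among 22907 were recovered. These changes were all well past 2-fold and were made on probes well above background. Their recovery therefore does not bear on ratios near 2-fold or on signals close to background. Python 3.11.15, numpy 2.4.6, pandas 2.3.3, matplotlib 3.10.9 and R 4.3.3 were used. The number of arrays limits the precision, and the scanner error does not cover differences between cultures.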

Additional observations from a re-analysis of the deposited data

How the results depend on the processing

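No called ratio of a collagen gene changed sign under any of the 12 alternatives that kept the 2-fold threshold. Scaling by 1 factor for each array moved log2 ratios by at most 0.59, and called log2 ratios were at least 1 in size. Such scalings and the looser filters, which reused the same signals, therefore could not reverse a call. Between 31 and 38 of the 38 called ratios stayed past 2-fold (32 of the 32 that had a value without the clustered spots). Percentages in brackets are the shares of all named genes under the same setting. For LuM1 over Colon26, 7 of 26 genes were higher (13.1%). This count was 11 of 34 with looser detection (14.6%), 11 of 44 with no filter on dim probes (11.3%) and 2 of 26 at 4-fold (5.98%). Lower were 7 of 26 (11.8%). This count was 4 of 27 with the authors' values (6.09%) or normexp (8.92%) and 3 of 26 at 4-fold (3.79%). For LuM1 over NM11, 5 of 28 were higher (11.1%). With looser detection 10 of 35 were (13%), with no filter 10 of 44 (10.1%) and at 4-fold 2 of 28 (4.56%). Lower were 8 of 28 (8.5%). With *Hprt* 4 of 26 were lower (3.52%), with the authors' values 5 of 26 (4.43%) and at 4-fold 4 of 28 (2.44%). For NM11 over Colon26, 4 of 27 were lower (7.89%). This fell to 2 of 27 with normexp (4.47%) and 1 of 23 without the clustered spots (5.93%). Against both lines, 4 of 29 genes were higher in LuM1 (7.33%), but 1 at 4-fold (3.1%). Lower in LuM1 were 4 of 29 (4.03%), but 2 with *Hprt* (1.94%), the authors' values (1.97%) or the 4-fold threshold (1.1%). For LuM1 over Colon26 the median of collagen log2 ratios was 0.01, but 0.46 with the authors' values, -0.32 with no filter and 0.25 without the clustered spots. That of LuM1 over NM11 was -0.20, but 0.39 with *Hprt*, 0.11 with spike-in controls, 0.21 with the authors' values and 0.078 with no filter. That of NM11 over Colon26 was 0.10, but -0.38 with *Hprt*, -0.15 with spike-in controls and -0.14 with no filter. The stricter threshold and the omitted spots lower counts by construction, and otherwise the cause was not tested. No paired analysis was possible because each line had 1 array and the labels give no replicate numbers. Signals below about 100 units lie close to background, and their ratios depended most on its correction.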
